A study of Mus musculus with 15 samples.

Results

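Cebpd and Stat5a, 2 genes that encode transcription factors of cytokine responses, were followed across 15 dual-colour cDNA arrays. They are 2 of 9834 named genes on the array, and each is represented by 1 of its 20205 probes, taken by the gene symbol of the platform annotation after its update through the gene identifier. Both were chosen by their treatment ratios, since they lay among the 10 genes of smallest p in the treatment comparison of these same arrays, so their treatment ratios are given below as a description without a test. Each array carried RNA of a mouse line named in the labels as a lymphoid ES (embryonic stem) cell line, once treated and once untreated, labelled with Cy5 and Cy3. The treated RNA was in Cy5 on 8 arrays (numbered 1 to 8) and in Cy3 on the 7 dye swaps (9 to 15). The labels state neither agent, dose, time, genotype, strain nor number of cultures, and their protocol speaks of organs and a reference pool from control animals, which is at odds with an untreated cell line as the other channel. No statement on separate cultures was found, so p-values measure the spread between arrays, which may be technical.

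Cytokines that bind receptors of the type I and II families activate receptor-bound Janus kinases, which phosphorylate STAT proteins. Phosphorylated STAT dimers enter the nucleus and bind palindromic DNA elements near genes such as Cish, the Socs genes and Bcl2l1. Stat5a acts below the receptors of interleukin-7, interleukin-3, erythropoietin and prolactin, and supports the growth and survival of lymphoid and other blood cells. Cebpd encodes C/EBP delta, a basic leucine zipper factor whose transcription is induced by interleukin-6 through STAT3 and by inflammatory and glucocorticoid signals, and which activates acute phase genes. STAT proteins are themselves regulated mainly by phosphorylation, which an RNA measurement does not show.

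The deposited values are log2 ratios of the channels, and between 19213 and 19973 probes per array were measured. A value above 0 was taken to mean more RNA in the treated line. This reading rests on the sign of 1999 placeholder values for an empty channel, which were above 0 in all 1117 cases on the arrays with treated RNA in Cy5 and below 0 in all 882 cases on the dye swaps. Unturned ratios of Cy5 over Cy3 would give the same signs if the empty channel always held the untreated RNA. The signs therefore do not settle the direction. If the swaps had instead to be turned, the treatment estimate and the dye effect given below would change places. Arrays resembled each other weakly: the median correlation over probes was 0.091 among arrays with treated RNA in Cy5, 0.034 among dye swaps and -0.058 between the orientations. Arrays 7, 8 and 15 stood apart, correlating with any other array at 0.083 at most. Ratios give no level, so whether the line held ES or lymphoid markers at all could not be checked. Of 6 measured pluripotency markers 3 were above 0 (median 0.023, log2), and of 4 measured B lineage markers 3 were (median 0.072).

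Cebpd lay above 0 on 14 of 15 arrays. Where Cy5 carried the treated RNA, its log2 ratio was 0.123 on the lowest array, 0.38 at the median and 0.646 on the highest of 8. On the 7 dye swaps, it was -0.006 on the lowest array, 0.239 at the median and 0.586 on the highest. The low values were those of arrays 14 (-0.006), 15 (0.036) and 2 (0.123), and the high ones those of arrays 4, 1 and 9, so both orientations held high and low arrays and their ranges overlapped. The mean was 0.40 ± 0.18 (SD, n = 8) with the treated RNA in Cy5 and 0.27 ± 0.22 (SD, n = 7) in the swaps. The treatment estimate, defined as the mean of both orientation means, was 0.34 ± 0.06 (SE, n = 15 arrays), which is a 1.26-fold ratio. This gene ranked 5 of 9720 genes by p. Leaving out single arrays moved the estimate between 0.31 and 0.36.

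Stat5a lay above 0 on every one of the 15 arrays. Where Cy5 carried the treated RNA, its log2 ratio was 0.077 on the lowest array, 0.278 at the median and 0.523 on the highest. In the swaps, it was 0.065 on the lowest array, 0.266 at the median and 0.366 on the highest. The range of the swaps lay almost wholly inside that of the other orientation; arrays 11, 1, 15 and 3 were low and arrays 4 and 5 high. The orientation means were 0.28 ± 0.17 (SD, n = 8) and 0.24 ± 0.12 (SD, n = 7), and the treatment estimate was 0.26 ± 0.05 (SE, n = 15 arrays), a 1.2-fold ratio. By p it ranked 8 of 9720. Among 8297 genes with values on all 15 arrays, 4 were above 0 throughout, Akap13, Ezh2, Mrpl57 and Stat5a, and 2 were below 0 throughout; these names follow from the values and were not fixed beforehand. Without single arrays the estimate of Stat5a stayed between 0.24 and 0.28.

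**Figure D1:**
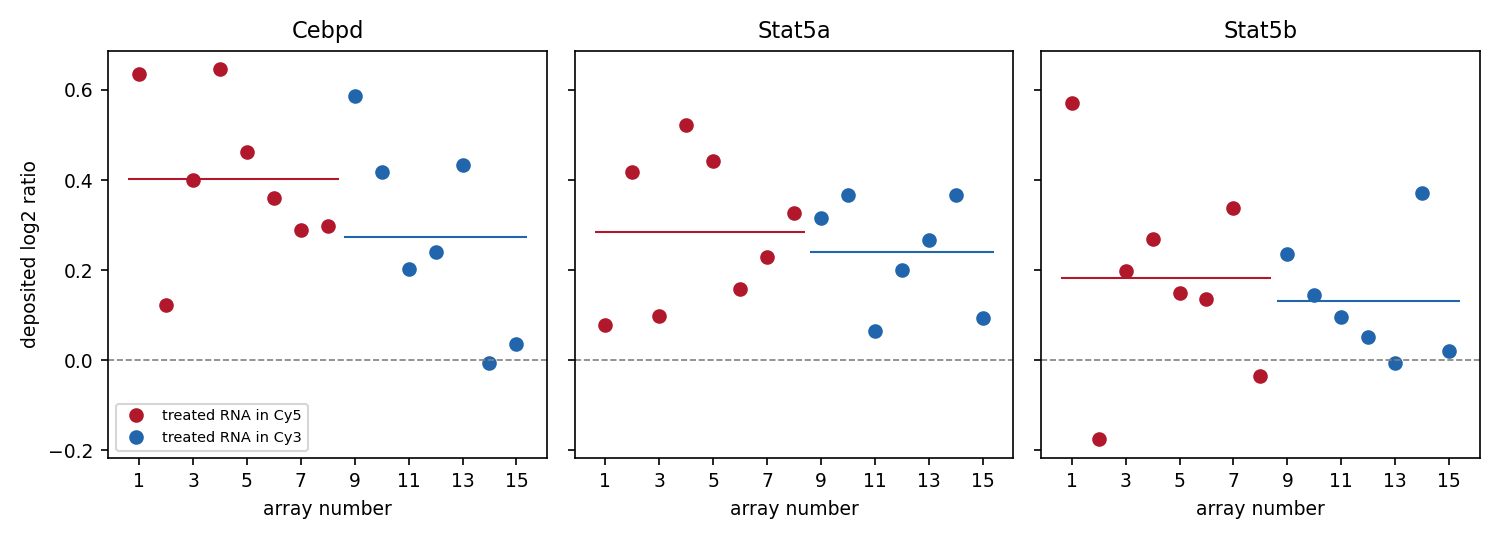
Deposited log2 ratio (vertical axis) of Cebpd, Stat5a and the paralog Stat5b on each of 15 arrays (horizontal axis, array number); red points mark the treated RNA in Cy5, blue points the dye swaps, and horizontal lines the mean of each orientation. Stat5a is above 0 on all 15 arrays, Cebpd on 14 and Stat5b on 12.

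The background for these ranks is sparse. With limma and Benjamini-Hochberg adjustment, 4 of 9720 genes (0.0412%) passed an adjusted p of 0.05 for the treatment estimate, and neither Cebpd nor Stat5a was among them. At an unadjusted p under 0.05 there were 682 genes (7.02%), of which 383 were above 0 (3.94% of those tested) and 299 below 0 (3.08%). Of all genes, 52% had an estimate above 0, and the median was 0.0054. The rule that picked the members used this contrast, so nothing is read from their place in it.

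The dye effect, 0.5 times the difference between the orientations (treated in Cy5 minus treated in Cy3), was not used to pick the genes and could be tested. It was 0.06 ± 0.06 (SE) for Cebpd (limma, adjusted p = 0.578) and 0.02 ± 0.05 for Stat5a (limma, adjusted p = 0.846). For neither gene was a difference between the orientations detected, which does not show that there was none. For comparison, 254 genes (2.61%) passed for the dye effect over the whole array, and 1895 (19.5%) had an unadjusted p under 0.05.

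Both probes gave measurable spots throughout. Neither had a placeholder, and none of their 15 values each equalled a ratio of small whole numbers, the mark of a spot of a few signal units (called dim here); 36.4% of the 13891 named probes were likewise free of such values. Both genes also varied little between arrays of 1 orientation. The residual SD was 0.20 (log2) for Cebpd, and 11.2% of the 8297 genes with values on all arrays had a smaller one. For Stat5a it was 0.15, and 2.52% of genes had a smaller one, against a median of 0.33. A low spread enters the p that picked the genes, so it too is a description.

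On the arrays themselves neither gene was extreme. Cebpd exceeded between 50.6% and 93.9% of the genes of an array, with a median of 86.9%, and lay above the 90th percentile on 5 arrays. Stat5a exceeded between 52.7% and 92.5% of genes, with a median of 80.7%, and lay above the 90th percentile on 3 arrays. Both thus lay above the middle of every array's ratios, by a small margin for Cebpd on arrays 2, 14 and 15 and for Stat5a on arrays 1 and 3.

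After removal of each orientation's mean, their ratios correlated at r = 0.13 over the 15 arrays (two-sided permutation p = 0.646) and at a rank correlation of 0.075 (permutation p = 0.791). After Benjamini-Hochberg adjustment over these 2 tests both were 0.791. Without arrays 4 and 9, the farthest from the median of Cebpd once the orientation means were removed, r was -0.18. It was -0.049 on the arrays with treated RNA in Cy5 and 0.37 on the swaps, and no relation was detected. Both genes had their highest ratio on array 4. On array 1 Cebpd stood at 0.636 and Stat5a at 0.077, while on array 14 Cebpd stood at -0.006 and Stat5a at 0.366. The arrays may share RNA extracts, which the labels do not settle.

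**Figure D2:**
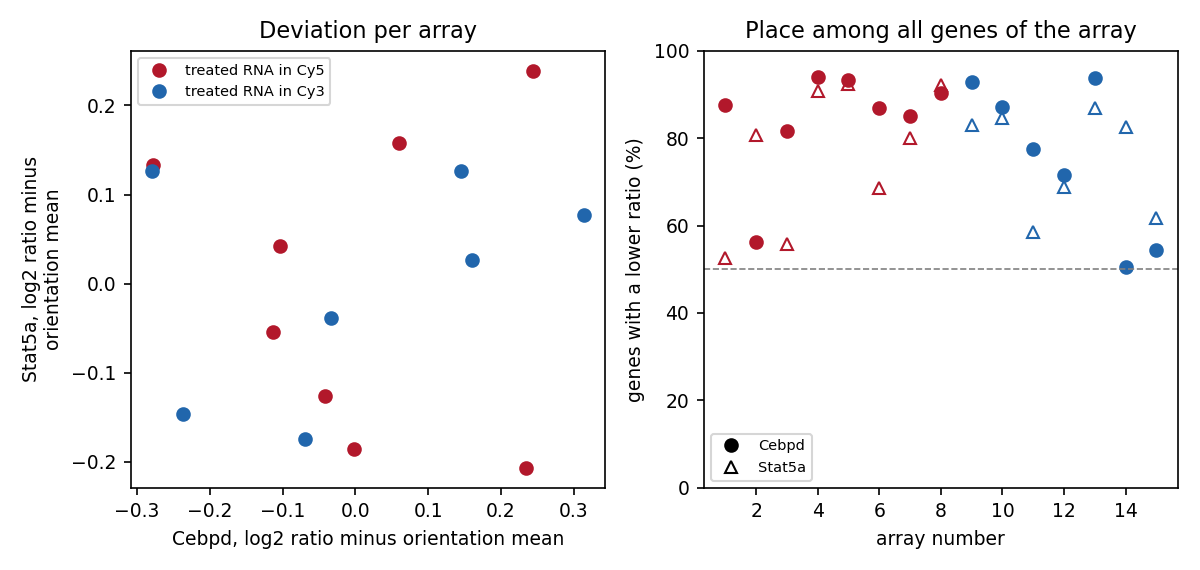
Left, deviation of Stat5a (vertical, log2) against that of Cebpd (horizontal, log2) from the mean of their orientation, 1 point per array. Right, percentage of genes of the array with a lower ratio than Cebpd (filled circles) or Stat5a (open triangles) by array number; red is treated RNA in Cy5 and blue the dye swaps. The left points show no line (r = 0.13), and all points on the right lie above 50%.

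Within the STAT family, 5 of 7 genes were measured, and the 4 beside Stat5a all had estimates above 0 (median 0.13), with 2 of them at an unadjusted p under 0.05, against 52% and 3.94% of all genes. Stat5b is the paralog of Stat5a. Its log2 ratio was between -0.176 and 0.572 with a median of 0.145, it was above 0 on 12 of 15 arrays, and its estimate was 0.16 ± 0.06 (SE; limma, unadjusted p = 0.0147, adjusted p = 0.598). Stat4, which acts below interleukin-12, was at 0.15 ± 0.06 (limma, unadjusted p = 0.0249, adjusted p = 0.657). Its orientations differed in mean, 0.0093 with treated RNA in Cy5 and 0.30 in the swaps, with a dye effect of -0.15 ± 0.06 (limma, adjusted p = 0.206). Stat3, the transducer of interleukin-6 and of leukaemia inhibitory factor, was at 0.10 ± 0.06 and above 0 on 10 arrays, 7 with treated RNA in Cy5 and 3 swaps. Its dye effect was 0.17 ± 0.06 (limma, adjusted p = 0.112). This gene is the average of 2 probes that differed. The first was above 0 on 13 arrays, and the other was above 0 on 7 and below 0 on every swap. Stat2 of the interferon pathway was at 0.02 ± 0.14 with 1 array at -1.949. The estimates of Stat5b, Stat4 and Stat3 lay within 1 SE of each other. No STAT gene passed after adjustment. Without arrays 10 or 12 the count at an unadjusted p under 0.05 was 1, and without array 15 it was 4, without array 1 or array 9 it was 3. Without arrays 7, 8 and 15 together it was 3. It was 1 in either orientation alone, and over the swaps alone 2 of the 4 estimates were above 0. With the swaps turned, 3 would be above 0 and 1 below, with 1 on each side at that threshold.

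RefSeq (GRCm38.p6) places Stat5b, Stat5a and Stat3 next to each other on chromosome 11, in that order among protein-coding genes. Stat5a and Stat5b are close copies, and the array's cDNA probes could bind RNA of both; how much they did was not tested. Across arrays the ratios of the pair did not run together: their correlation after removal of the orientation means was -0.18, which put Stat5b at place 5985 of 8296 genes in likeness to Stat5a. On array 1 Stat5b was at 0.572 and Stat5a at 0.077, and on array 2 Stat5b was at -0.176 and Stat5a at 0.417.

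In the C/EBP family, 5 of 7 genes were measured. Of the 4 beside Cebpd, 0 were above 0 and 1 was below 0 at an unadjusted p under 0.05. The shares of all genes were 3.94% and 3.08%, so a count of 0 among 4 genes is no result about the family. Cebpg, a partner without an activation domain, was at 0.04 ± 0.05 (SE), Cebpe of granulocyte maturation at 0.0031 ± 0.06 and Cebpa of myeloid and fat cell differentiation at -0.05 ± 0.12. The value of Cebpg averages 2 probes that were far apart on several arrays. They were at -0.484 and 0.624 on array 1 and at 0.607 and -0.096 on array 9, but at -0.010 and -0.028 on array 14. Ddit3, the stress-induced CHOP protein that dimerises with other C/EBP factors, was at -0.17 ± 0.06 (limma, unadjusted p = 0.00666, adjusted p = 0.503) and below 0 on 12 of 15 arrays. The estimates of these 4 ranged from -0.17 to 0.04, beside 0.34 for Cebpd, which was picked for its ratio. With the swaps turned, Cebpd would be at 0.064, between Ddit3 at -0.056 and Cebpa at 0.093. Among the STAT genes, Stat5a would then be at 0.022, below Stat2 at 0.18 and Stat3 at 0.17.

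**Figure D3:**
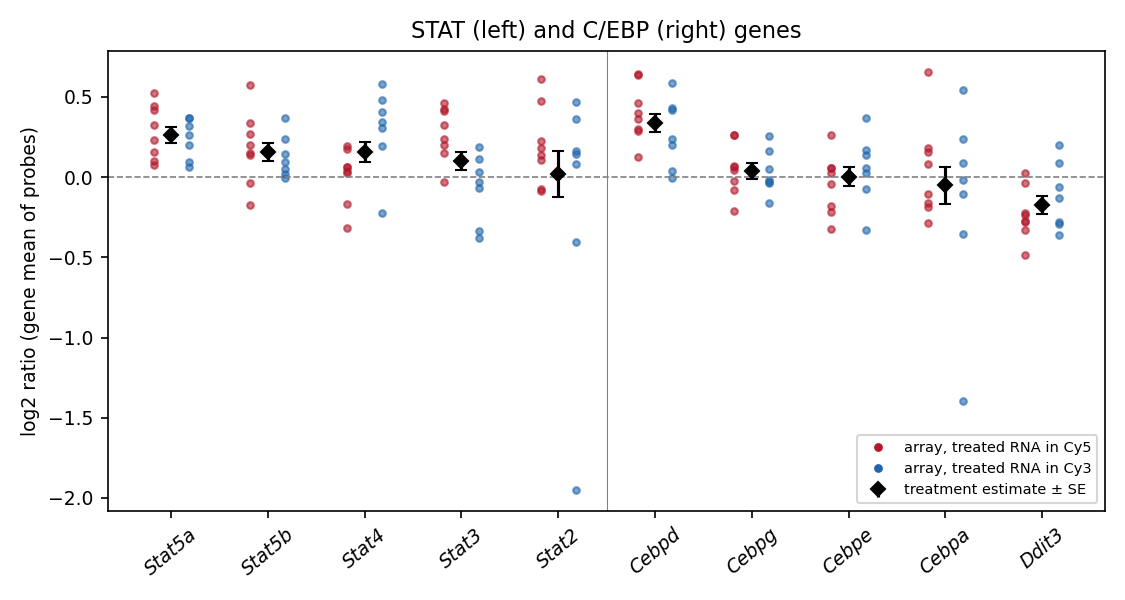
Log2 ratio (vertical axis) of the measured STAT genes (left) and C/EBP genes (right); points are arrays, red with the treated RNA in Cy5 and blue dye swaps, and black diamonds with bars are the treatment estimate ± SE over 15 arrays. Cebpd is at 0.34 and Stat5a at 0.26, Stat2 and Cebpa each have 1 low swap array, and Ddit3 is at -0.17.

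Regions before the annotated starts of Stat5a are shown because the STAT and C/EBP elements by which these factors act on genes were searched there. RefSeq promoter windows (GRCm38.p6), found for 8 of the 10 measured STAT and C/EBP genes and not for Cebpd and Cebpe, were cut to the 250 bases before each start. A STAT element was read as TTCNNNGAA and a C/EBP element as TTGCNNAA, on both strands; the letters of the former are palindromic, and no match of one overlapped a match of the other in the windows of the genes tested here. Of 32851 windows of that length, 7.02% held the STAT letters and 9.56% the C/EBP letters. Neither window of Stat5a, on the plus strand of chromosome 11, held either, which says only that these letters are not in these windows, and all letters are therefore in lower case. The second holds the Sp1 letters, GGGCGG or CCGCCC for the other strand, at 2 places, as 32.7% of all windows do at least once.
Stat5a, chr11:100859406-100859655: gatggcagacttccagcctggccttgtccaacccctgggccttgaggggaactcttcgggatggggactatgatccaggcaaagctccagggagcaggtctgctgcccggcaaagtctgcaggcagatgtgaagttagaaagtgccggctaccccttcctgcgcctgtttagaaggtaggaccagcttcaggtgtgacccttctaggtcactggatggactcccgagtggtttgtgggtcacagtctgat
Stat5a, chr11:100860234-100860483: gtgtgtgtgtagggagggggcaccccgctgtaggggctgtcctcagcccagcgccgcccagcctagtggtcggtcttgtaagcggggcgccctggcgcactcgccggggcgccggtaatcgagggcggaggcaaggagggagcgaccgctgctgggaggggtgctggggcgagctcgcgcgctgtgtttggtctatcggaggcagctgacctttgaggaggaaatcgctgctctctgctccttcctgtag

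The pathway around the 2 genes was described by 11 lists. With both members left out, 108 of 193 listed genes were tested, 50 were above 0 and 58 below, and the median was -0.011 against 0.0054 over all genes. None passed limma's adjusted threshold. At an unadjusted p under 0.05 there were 20 genes, 5 above 0 and 15 below. Over all genes, the shares at that threshold were 3.94% above 0 and 3.08% below. The lists overlap and were drawn up with earlier results known, so these counts are descriptions.

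The inputs of the pathway are its receptors and ligands. Over all genes, 7.02% were at an unadjusted p under 0.05 in either direction, and the counts here were not tested against that share. Of 11 receptors measured of 37 listed, 5 were above 0 and 6 below (median -0.024), and 1, Csf2rb2, was at an unadjusted p under 0.05. This subunit of the interleukin-3 receptor was at -0.22 ± 0.06 (SE; limma, unadjusted p = 0.00274, adjusted p = 0.409) and above 0 on 2 of 15 arrays; it is a close copy of Csf2rb, so the probe may have bound both. The leptin receptor gene Lepr was at 0.22 ± 0.11. Ifngr2, a chain of the interferon gamma receptor, was above 0 on all 8 arrays with treated RNA in Cy5 and on none of the 7 swaps, with a dye effect of 0.51 ± 0.07 (limma, adjusted p = 0.00415), so its treatment estimate of -0.11 averages opposite values. Of 6 ligands, 4 were above 0 and none was at an unadjusted p under 0.05; the highest estimate, that of Clcf1, was 0.19 ± 0.20, and Tslp was at 0.12 ± 0.07.

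Janus kinases and their adaptors lay around 0. Of 11 genes, 5 were above 0 and 6 below, the median was -0.0011, and none was at an unadjusted p under 0.05. The lymphoid kinase Jak3 was at -0.14 ± 0.13 (SE), and the adaptors Sh2b3 and Shc1 were at -0.07 ± 0.06 and 0.05 ± 0.05. Of the 14 measured inhibitors of the pathway, 9 were below 0 (median -0.063). Socs1, which blocks Janus kinases, was at -0.15 ± 0.07 (limma, unadjusted p = 0.0485, adjusted p = 0.710), and Socs7 was at -0.08 ± 0.05. Ptprc, the CD45 phosphatase of blood cells, was at 0.19 ± 0.05 (limma, unadjusted p = 0.00222, adjusted p = 0.392), above 0 on all 7 swaps and on 4 of 8 other arrays. Its mean was -0.0031 with treated RNA in Cy5 and 0.39 in the swaps, with a dye effect of -0.20 ± 0.05 (limma, adjusted p = 0.0594).

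STAT5 target genes lay more often below 0 than above. Of 18 measured targets, 13 were below 0 and 5 above, with a median of -0.053 against 0.0054 over all genes, and the list's median was above 0 on 4 of 15 arrays. At an unadjusted p under 0.05 there were 4, all below 0, against a background of 3.08% below. Bcl2l1, which encodes the survival protein BCL-XL, was at -0.17 ± 0.06 (SE; limma, unadjusted p = 0.00667, adjusted p = 0.503) and above 0 on 3 of 15 arrays. Ccnd2, a D-type cyclin of cell cycle entry, was at -0.14 ± 0.06 and also above 0 on 3 arrays, with its lowest array at -0.556. Pim3, a survival kinase, was at -0.14 ± 0.06, below 0 on all 8 arrays with treated RNA in Cy5 and above 0 on 3 swaps. Its mean was -0.30 with treated RNA in Cy5 and 0.023 in the swaps. Socs1 is the remaining one. The classic target Cish, named here after its value was seen, was at -0.12 ± 0.08 (unadjusted p = 0.123 in limma). The count of 4 was 2 without array 8, 11, 14 or 15 and without arrays 7, 8 and 15 together, while 13 targets stayed below 0 in the last case. It was 2 in either orientation alone and with the most measured probe per gene. With the swaps turned, 7 of 18 would be below 0.

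**Figure D4:**
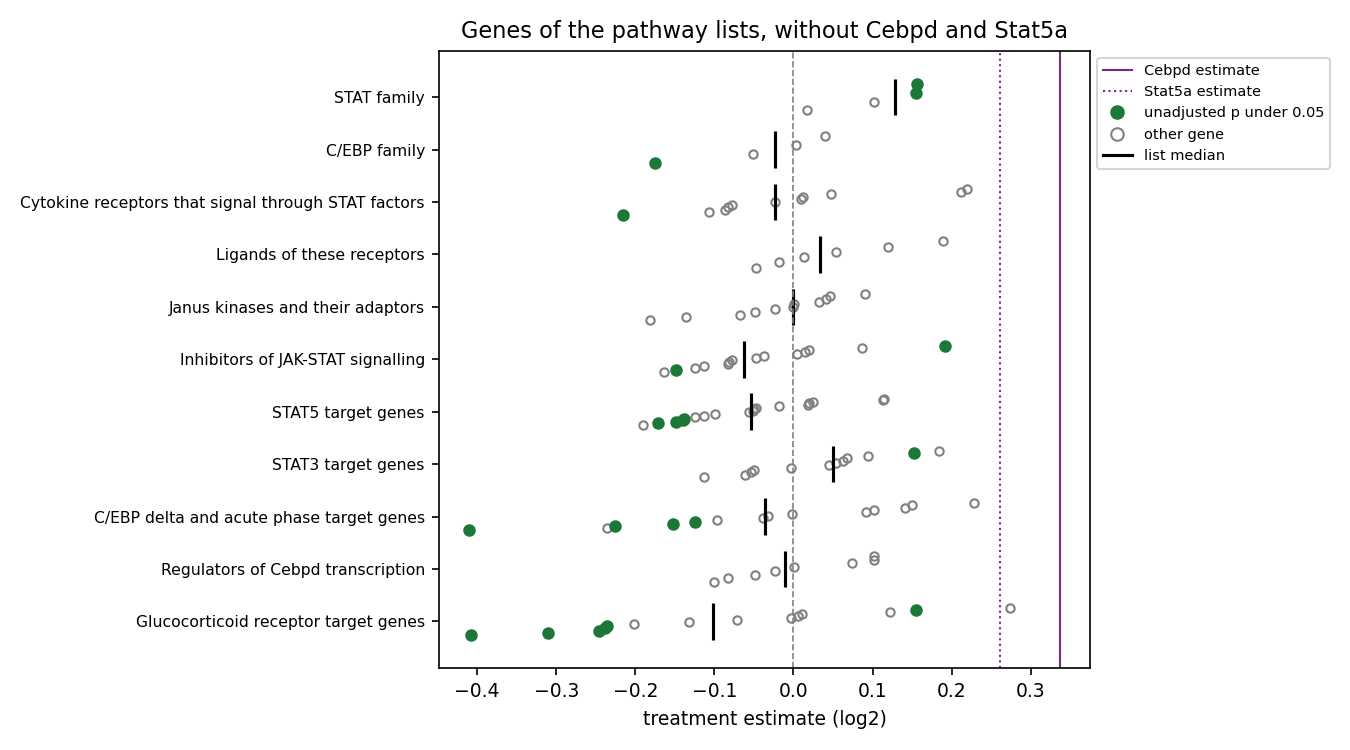
Treatment estimate (horizontal axis, log2) of every measured gene of 11 pathway lists (rows) without Cebpd and Stat5a; filled green points have an unadjusted p under 0.05, open points do not, black bars are list medians and purple lines mark Cebpd (0.34) and Stat5a (0.26). None of the 108 genes passed after adjustment. Only the STAT family has a median above 0.1.

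The genes around Cebpd were read in the same way. Of its 8 measured upstream regulators, 4 were above 0 and 4 below, with none at an unadjusted p under 0.05; the glucocorticoid receptor gene Nr3c1 was at 0.10 ± 0.12 (SE). Of 12 STAT3 targets other than Cebpd, 7 were above 0 (median 0.050). Fgl1, a liver-derived fibrinogen relative, was at 0.15 ± 0.07 (limma, unadjusted p = 0.0494, adjusted p = 0.710). Pim1, a survival kinase that is also a STAT5 target, was above 0 on 5 arrays with treated RNA in Cy5 and on no swap, with a dye effect of 0.35 ± 0.07 (limma, adjusted p = 0.0165). Over the swaps alone the median of the STAT3 targets was -0.17.

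Target genes of C/EBP delta and of the acute phase held 4 genes at an unadjusted p under 0.05, all below 0, against 3.08% of all genes. Of 14 measured, 9 were below 0 and 5 above (median -0.035). Saa1 and Saa3 encode serum amyloid A proteins of the acute phase and were at -0.41 ± 0.15 (SE; limma, unadjusted p = 0.0122, adjusted p = 0.570) and -0.15 ± 0.07 (unadjusted p = 0.0336). Both were below 0 on 11 of 15 arrays. Mmp8, the collagenase of neutrophils, was at -0.23 ± 0.07 (limma, unadjusted p = 0.00318, adjusted p = 0.430), below 0 on all 7 swaps and on 5 of 8 other arrays. Its mean was -0.013 with treated RNA in Cy5 and -0.44 in the swaps, with a dye effect of 0.21 ± 0.07 (limma, adjusted p = 0.0875). Ltf, the lactoferrin gene of neutrophil granules, was at -0.12 ± 0.06 and is named here after its value was seen. The count of 4 was 2 without array 1, 6, 8, 10 or 15, and 1 with dim spots left out, with array weights or on the arrays with treated RNA in Cy5 alone. Without arrays 7, 8 and 15 it was 2, and 8 of the 14 then lay above 0, so the balance of the list turned. With the swaps turned, 8 would be above 0 as well, with 2 on each side at an unadjusted p under 0.05.

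Markers of myeloid cells lay below 0 as well. Of 11 listed markers 8 were measured, all 8 were below 0 between -0.30 and -0.033 (median -0.12), and Camp, S100a9 and C1qb had an unadjusted p under 0.05; over all genes 52% were above 0 and 3.08% were below 0 at that threshold. With the swaps turned, a setting added for the markers after their values were seen, 5 of the 8 would be above 0 and 3 below (median 0.12), with 4 above at that threshold. S100a9 also differed between the orientations, with a dye effect of 0.31 ± 0.06 (SE; limma, adjusted p = 0.0126). Ratios give no level, so whether any defining marker was absent is unknown, and the part of these markers in the result was not tested. In such bulk RNA, fewer cells of a type and less RNA per cell cannot be told apart.

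The promoter windows of the 4 targets are shown because each holds the C/EBP letters once, in capitals. Of the 14 measured genes of the list, 11 had a window, and 6 of their 14 windows held the letters, those of Cp, Lcn2, Ltf, Mmp8, Saa1 and Saa3. The list was drawn from known C/EBP targets, so this share is no independent result. Cp was at 0.14 ± 0.12 (SE) and Lcn2 at -0.0021 ± 0.05, so genes with the letters lay on both sides of 0. The match starts 182 bases before the start of Saa1, 99 before Saa3, 19 before Mmp8 and 75 before Ltf. Saa1 and Saa3 lie on the minus strand and are printed along it, and Mmp8 and Ltf lie on the plus strand.
Saa1, chr7:46742981-46743230: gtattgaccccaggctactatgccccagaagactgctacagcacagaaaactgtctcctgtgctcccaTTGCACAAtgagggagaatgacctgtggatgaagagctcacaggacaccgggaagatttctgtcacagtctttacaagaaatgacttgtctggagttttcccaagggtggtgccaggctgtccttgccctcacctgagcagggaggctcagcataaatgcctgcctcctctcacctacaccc
Saa3, chr7:46715677-46715926: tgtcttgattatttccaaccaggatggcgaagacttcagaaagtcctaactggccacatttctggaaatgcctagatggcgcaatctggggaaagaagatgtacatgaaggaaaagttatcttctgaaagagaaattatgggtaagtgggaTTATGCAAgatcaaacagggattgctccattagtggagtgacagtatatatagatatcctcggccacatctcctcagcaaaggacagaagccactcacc
Mmp8, chr9:7558179-7558428: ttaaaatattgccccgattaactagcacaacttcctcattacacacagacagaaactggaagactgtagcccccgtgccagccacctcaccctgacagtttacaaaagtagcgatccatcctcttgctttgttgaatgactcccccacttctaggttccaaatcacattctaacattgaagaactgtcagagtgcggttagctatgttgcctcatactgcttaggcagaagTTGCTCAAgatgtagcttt
Ltf, chr9:111019042-111019291: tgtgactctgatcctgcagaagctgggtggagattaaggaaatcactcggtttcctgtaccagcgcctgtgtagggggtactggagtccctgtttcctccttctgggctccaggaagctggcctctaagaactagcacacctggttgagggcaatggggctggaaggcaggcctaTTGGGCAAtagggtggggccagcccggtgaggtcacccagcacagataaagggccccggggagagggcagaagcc

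For STAT elements, the window of Csf2rb2, the receptor of smallest p, and a window of Bcl6 are shown. Both are printed along the minus strand with the matches in capitals. Windows of Agt, Fgb, Icam1, Ifnar2, Klf9, Per1 and Tnfrsf1a also held the STAT letters and are not printed. Of all windows 7.02% held them, beside 2 of 9 for the receptors and 2 of 22 for the STAT5 targets. Csf2rb2 holds 1 match, 15 bases before its start. Bcl6, a repressor of germinal centre B cells, was the only gene of the 15 STAT5 targets with windows that held the STAT letters; of its windows one held 3 matches and another 1. Its estimate was 0.02 ± 0.08 (SE), so the gene with the most matches showed no shift beyond its error. None of the windows of the measured STAT genes and none of those found for the C/EBP genes held STAT or C/EBP letters.
Csf2rb2, chr15:78305722-78305971: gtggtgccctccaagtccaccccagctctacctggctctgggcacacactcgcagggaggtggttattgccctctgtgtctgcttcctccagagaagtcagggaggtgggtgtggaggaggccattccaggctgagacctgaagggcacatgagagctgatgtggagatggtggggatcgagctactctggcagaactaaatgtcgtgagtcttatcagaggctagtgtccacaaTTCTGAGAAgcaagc
Bcl6, chr16:23981284-23981533: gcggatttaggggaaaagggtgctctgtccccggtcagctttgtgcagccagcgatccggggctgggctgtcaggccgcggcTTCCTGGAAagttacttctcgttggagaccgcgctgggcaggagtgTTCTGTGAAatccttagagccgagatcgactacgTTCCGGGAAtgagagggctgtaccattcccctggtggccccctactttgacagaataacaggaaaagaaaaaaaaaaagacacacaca

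Cebpd is also a target of the glucocorticoid receptor. Of 14 other such targets measured, 9 were below 0 and 5 above (median -0.10), with 5 below and 1 above 0 at an unadjusted p under 0.05, against 3.08% and 3.94% of all genes. With the swaps turned, 8 would be above 0 and 6 below, with 3 above and 1 below at that threshold. Those below were Glul (-0.24 ± 0.04, SE), Ddit4 (-0.41 ± 0.09), Txnip (-0.31 ± 0.07), Anxa1 (-0.24 ± 0.08) and Nfkbia (-0.25 ± 0.08), and the one above was Klf9 (0.16 ± 0.07); the last 4 are named after their values were seen. Ddit4 inhibits growth signalling, and Glul encodes glutamine synthetase. The orientations of Ddit4 differed in mean, -0.098 with treated RNA in Cy5 and -0.72 in the swaps, with a dye effect of 0.31 ± 0.09 (limma, adjusted p = 0.0746). The 5 below 0 were again 5 without any single array and without arrays 7, 8 and 15 together. With treated RNA in Cy5 alone there were 2. These genes carried high ranks in earlier results of these arrays, so the count is no independent support.

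The genes most like Cebpd over the 15 arrays, after removal of the orientation means and among 8296 other genes with all values, were Rmdn3 (r = 0.89), Cxxc1 (0.80), Tnfaip1 (0.76), Arnt2 (0.75) and Pcif1 (0.75). Their treatment estimates lay between -0.08 and 0.11, so they were alike in their deviations from array to array and not in their offset from 0. Those most like Stat5a were Grb2 (r = 0.80), Cdh16 (0.80), Eef1b2 (0.76), Pwp1 (0.76) and Baz2b (0.76), with estimates between -0.0012 and 0.15. Cebpd itself took place 2800 in likeness to Stat5a. The arrays share whatever was spotted and scanned together, and the highest of so many correlations over 15 points is a description only.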

How the data were processed

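RNA of a treated and an untreated mouse line was compared on 15 cDNA arrays. The log2 ratios are the authors' deposited values; scale was read from the values, and normalization, background correction, direction and clone sequences are not given in the sources that were used. Values of absolute log2 above 10 (1999 placeholders) were set missing. Symbols came from the platform annotation, giving 1 symbol for 13891 probes, of which 13855 were matched to RefSeq (GRCm38.p6). Probes of a gene were averaged. Genes with at least 4 values per orientation (9720) were fitted with limma 3.58.1 (lmFit, eBayes) in R 4.3.3 with the mean of both orientations and 0.5 times their difference; tests were two-sided with Benjamini-Hochberg adjusted p under 0.05. All 15 arrays form 1 group, and their number limits the precision. The fit was tested on simulated data with known shifts. Correlations used 100000 permutations. A value was called dim where, less the array's constant, it matched log2(a/b) within 0.0015 for whole a and b of at most 6.

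The members and lists were chosen with earlier results of these data known. Named were all measured STAT and C/EBP genes, the 3 genes of smallest p per other list, and the 5 most alike genes per member. Alternatives covered arrays, orientation, dye turning, normalization, filters, probes, weights and prior.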

Additional observations from a re-analysis of the deposited data

Results flagged for a closer look

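Among 20 sets of values (10 STAT and C/EBP genes in each orientation), 1 held a lone array: Stat2 on array 15, a dye swap, at -1.949, far below the other swaps. At the nominal level of Dixon's test, chance flags about 1 in 20 such sets. Over all genes, 254 (2.61%) passed limma's test of the dye effect, and the named genes were not tested against that share. The orientations differed for 4 named genes by limma's test of the dye effect. It was 0.51 for Ifngr2 (adjusted p = 0.00415), whose arrays also had opposite signs in the 2 orientations throughout, 0.35 for Pim1 (adjusted p = 0.0165), 0.31 for the myeloid marker S100a9 (adjusted p = 0.0126) and 0.39 for Tnfrsf1a (adjusted p = 0.0465), an upstream receptor of Cebpd.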

How the results depend on the processing

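Over 30 alternatives other than turned dye swaps, the treatment estimate ranged from 0.27 to 0.40 for Cebpd and from 0.24 to 0.28 for Stat5a, each within 1 SD over arrays. Some of these settings could not move the estimates of the 2 genes, namely those of filters, probes, placeholders and dim spots. Each gene has 1 probe with 15 values, none of them dim or a placeholder. The robust prior changes errors and not estimates. The dye effects of Cebpd and Stat5a did not pass in any of 27 fits with a dye term (adjusted p from 0.438 to 0.967). The cause was not tested for any shift given here, except that turning the swaps exchanges both components by construction. That setting gave 0.064 for Cebpd, 0.022 for Stat5a, 254 genes passing for treatment, 1895 at an unadjusted p under 0.05, 4 for dye, 16 pathway genes above 0 at an unadjusted p under 0.05, and medians of 0.0090 for inhibitors, 0.032 for STAT5 targets and 0.045 for glucocorticoid targets. The genes passing for treatment numbered 0 to 7 without single arrays (0 without array 10, 2 without array 11, 7 without array 6). They numbered 0 without arrays 7, 8 and 15 and in each orientation alone, 8 with placeholders left in or with the most measured probe, and 11 with array weights. Glul passed in each of the last 3 settings. At an unadjusted p under 0.05 there were 1274 genes with treated RNA in Cy5 alone and 1413 in Cy3 alone. Dye calls numbered 99 to 431 without single arrays, 571 without arrays 7, 8 and 15 and 676 with array weights. Pathway genes above 0 at an unadjusted p under 0.05 numbered 2 to 6 without single arrays and 3 after centring; those below 0 numbered 8 with treated RNA in Cy5 alone. The median of STAT3 targets was -0.17 in Cy3 alone. The correlation of Cebpd and Stat5a ranged from -0.056 to 0.32 without single arrays, turning below 0 without array 4 (-0.056), and was -0.049 with treated RNA in Cy5 alone. It was 0.46 with scaled arrays and 0.50 after quantile normalization; no alternative made it pass (permutation p from 0.0565 to 0.949). No paired analysis was possible because the arrays form 1 group in which no number is shared. Signal over background is unknown.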
